A study of Schizosaccharomyces pombe with 6 samples.

Results

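The amo1 locus of fission yeast (Schizosaccharomyces pombe) was described with the 379 array probes, of 43993 on each array, that tile a window of chromosome II, from 3022011 to 3040970 in the numbering of the array. The window was set by position, with amo1 near its middle, and not by any measured value. Earlier results of these data were known when it was chosen. Probes are 60 bases long at steps of 50, and all 379 match 1 place in the reference genome. The window holds amo1 and 19 other annotated genes, 20 in all, of which 7 are long noncoding RNA (lncRNA) genes.

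The study mapped newly made histone H3 on 6 arrays, in amo1D (a deletion of amo1), rix1E414K and pob3D cells with 1 array each and in wild-type (WT) cells with 3 arrays. All cells carried a plasmid that makes FLAG-tagged H3 (H3.2) under the inv1 promoter. They grew in 8% glucose, were held in 15 mM hydroxyurea (HU), which stalls DNA replication, for 4 h, and were then moved for 2 h into 4% sucrose with the drug to induce the tagged histone. Cells were fixed in 1% formaldehyde for 20 min. DNA sheared to 400 to 600 bp and pulled down with the FLAG tag was labelled with Cy5, and whole-cell extract (input) DNA with Cy3. The labels do not say how amo1 was deleted or what stands in its place, nor whether the WT arrays come from separate cultures, so the spread between them may be technical. They also do not say whether a strain is 1 clone.

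Chromatin is not still between rounds of replication: nucleosomes are taken apart and rebuilt, mostly where genes are read, and histones made outside S phase enter at such places. The ratio of tagged H3 to input DNA measures this entry, called turnover. Amo1 is a protein of the nuclear rim. Rix1 is a subunit of the rixosome, a complex of ribosome biogenesis, and Pob3 is a subunit of FACT, a histone chaperone that helps polymerases pass through nucleosomes. The series asks how these factors bear on turnover. At the amo1 locus the deletion also removes the DNA itself, so no ratio is given for amo1 on the amo1D array and the edges and neighbours are described instead.

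Values below are log2, with each channel set to 0 at the median probe of its array. A ratio of 0 is therefore the median probe, and a difference of 1 is a doubling. Over the 6 arrays the median Cy5 intensity ranged between 1018 and 1150 and the median Cy3 intensity between 993.2 and 1145, and no probe of the window was flagged on any array. The number of arrays limits the precision: no mutant has a replicate, and the smallest one-sided p of an exact permutation of 1 array among 4 is 0.25.

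The amo1 gene (SPBC15D4.10c) lies on the minus strand of chromosome II, at 3028685 to 3030225 in the reference assembly ASM294v3. The array numbering runs 1800 bases ahead there, so on the array the gene spans 3030485 to 3032025 and its coding sequence 3030505 to 3031992. Downstream of amo1, to the left in array numbering, lies met3, and upstream, to the right, lies SPBC15D4.11c. All 3 genes are read in the same direction. The lncRNA gene SPNCRNA.1575 runs antisense over the whole of amo1. Both ends of the coding sequence are shown because the deleted stretch begins and ends next to them, as reference bases of the minus strand, 5′ to 3′, with the start and stop codons in capitals. The first stretch is 3030133 to 3030192 and the other 3028705 to 3028764 of chromosome II in ASM294v3.
first 60 coding bases of amo1: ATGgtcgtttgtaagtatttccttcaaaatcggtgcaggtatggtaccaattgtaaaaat
last 60 coding bases of amo1: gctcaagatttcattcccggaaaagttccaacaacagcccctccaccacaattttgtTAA

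The spacers on both sides carry the edge probes described below, and their reference bases follow on the same strand. The spacer between SPBC15D4.11c and amo1 is 145 bases long (chromosome II, 3030226 to 3030370) with 30.3% G and C. The 300 bases downstream of amo1 (3028385 to 3028684) hold 28.7% G and C and a run of 22 alternating A and T bases, in capitals.
between SPBC15D4.11c and amo1: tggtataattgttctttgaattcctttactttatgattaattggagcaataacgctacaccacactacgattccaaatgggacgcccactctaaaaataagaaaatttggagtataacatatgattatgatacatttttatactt
300 bases downstream of amo1: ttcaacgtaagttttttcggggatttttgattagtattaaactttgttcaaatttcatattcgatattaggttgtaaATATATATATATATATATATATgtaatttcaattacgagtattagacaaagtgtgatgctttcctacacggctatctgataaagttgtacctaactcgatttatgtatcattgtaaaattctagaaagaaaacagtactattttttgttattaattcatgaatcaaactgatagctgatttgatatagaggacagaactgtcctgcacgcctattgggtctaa

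Input DNA of amo1 was missing from the amo1D array. The longest run of probes whose Cy3 lay more than 2 below the WT mean held 30 probes, from 3030511 to 3032020 of the array, which matches the coding sequence to within the 50-base probe step. Over these probes mean Cy3 was -9.61 in amo1D, -0.79 in rix1E414K and -0.68 in pob3D, against -0.87, -0.77 and -0.84 in WT replicates 1, 2 and 3. In amo1D 3 of the 30 probes were well above background in Cy3 and 1 in Cy5, whereas all 30 were on every other array. Because the rest had no measured level, the fold is a bound, at least 122-fold lower Cy3 in amo1D. It was taken against the dimmest probe that was well above background on that array. The bound holds only for the main background subtraction. Mean Cy3 differed from WT by -8.78 there, by -5.16 without background subtraction and by -1.76 under normexp background correction. The missing input DNA matches the label of this array, and the labels of rix1E414K and pob3D were not checked here.

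The last probe before the stretch (3030461 to 3030520) had a Cy3 of -3.57 in amo1D, against -2.23, -3.59 and -2.05 in the WT replicates, so amo1D was within the WT range. The first probe after it (3032011 to 3032070) had a Cy3 of -0.91 in amo1D, against -2.08, -1.83 and -1.93. Both edges thus fall within 1 probe step. One further probe of the window was dim in amo1D (3030361 to 3030420), 91 bases outside the stretch and over the alternating A and T run. It was not well above background in either channel in amo1D, and in WT too it was the dimmest probe of the window, at -4.78, -6.12 and -4.83 in Cy3.

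In WT cells amo1 held slightly more newly made H3 than the median probe. Its mean ratio over 31 probes was 0.19, 0.16 and 0.12 in WT replicates 1, 2 and 3, which is 0.16 ± 0.037 (SD, n = 3). The 3 values lie close together and all above 0. Among 943 chromosome II genes, 26.7%, 32.7% and 31.2% were higher than amo1 on these arrays, so amo1 sat in the upper part of the distribution without standing apart. The level was 0.24 after loess normalization within arrays.

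Within amo1 the WT ratio was higher toward the end of the gene than toward its start. Split into 3 equal parts, the part nearest the start averaged -0.07, 0.07 and -0.23 in the WT replicates. The middle part averaged 0.30, 0.15 and 0.25. The part nearest the end averaged 0.33, 0.25 and 0.31, and on every WT array it was higher than the first. Last minus first, averaged over WT arrays, was 0.38, which ranked 40 of 865 genes with at least 9 probes, whose median was 0.02. The gene taf51, for a subunit of the general transcription factor TFIID, had nearly the same slope in this window, 0.37 at rank 43, and cwf22, for a splicing factor, had 0.25. The reverse order was seen at zng1, for a metal-handling protein of the CobW family, at -0.17, and at pho2, for a phosphatase, at -0.12. From start to end amo1 had 0.19, 0.41 and 0.35 in rix1E414K. In pob3D the same parts had -0.23, -0.07 and 0.03.

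Around amo1, WT levels varied from gene to gene. Leaving out the lncRNA genes, the highest of the window was met3, for cystathionine gamma-synthase of methionine synthesis, at 0.40, 0.45 and 0.26 in the WT replicates. Next came zng1, at 0.28, 0.37 and 0.31. The lowest were snu1, for the U1 spliceosomal RNA, with only 3 probes and a wide spread of -0.15, 0.35 and -0.19, and cwf22, at -0.0045, 0.0076 and 0.13. Spacers varied as much as genes: the met3 to amo1 spacer averaged 0.34 ± 0.15 (SD, n = 3), the amo1 to SPBC15D4.11c spacer 0.033 ± 0.19 and the pho2 to cwf22 spacer -0.074 ± 0.19. Input signal followed base composition across the window, with a Pearson r between Cy3 and G and C content of 0.47 to 0.51 over 349 probes on the WT arrays. The array numbering was placed on the reference by correlating signal with G and C content, so a positive r was built in. Neighbouring probes also overlap and share fragments, so the r is a description only.

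**Figure D1:**
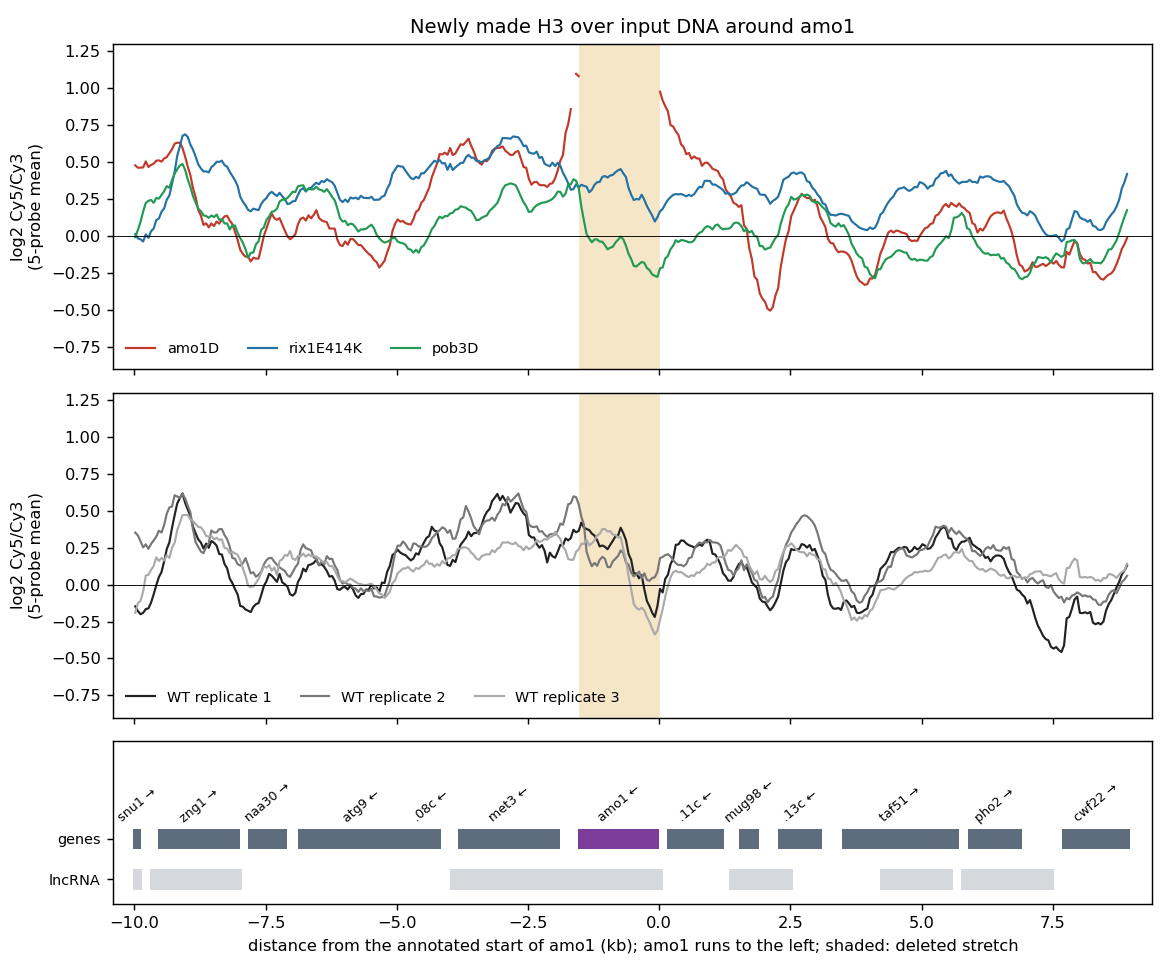
Log2 ratio of Cy5 (newly made H3) to Cy3 (input DNA), as a running mean of 5 probes, against distance in kb from the annotated start of amo1, with mutants above, WT replicates in the middle and annotated genes at the bottom (arrows give the direction of reading). Lines of amo1D stop at the deleted stretch (shaded) and at the probe not well above background in both channels. On both sides of the stretch amo1D stands above the WT lines, while rix1E414K runs mostly above and pob3D mostly below them over the window.

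Within 500 bases of the deletion the DNA carried more newly made H3 relative to input on the amo1D array than on any WT array. On the left side this depended on the background correction. Right of the stretch, on the side where amo1 starts, the 10 probes within 500 bases averaged 0.78 in amo1D, against 0.16, 0.17 and 0.00 in the WT replicates. All 10 lay above all WT arrays, where 24.9% of all probes did so. The difference of 0.67 (1.60-fold) compares with a WT SD of 0.092, and it was 1.16 under normexp background correction. From 500 to 1000 bases amo1D had 0.51, against 0.28, 0.24 and 0.09, a difference of 0.31, with 10 of 10 probes above all WT arrays. From 1000 to 2000 bases it had 0.12, against 0.07, 0.12 and 0.17, so the mean of amo1D was within the WT range. Most single probes there were not: of 20, 10 lay above all WT arrays, where 24.9% of all probes did so, and 7 below all. The share of all probes below all WT arrays was not counted, so the 7 have no background beside them.

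On the right side the unbroken run of probes above all WT arrays was 27 probes long and ended 1321 bases from the stretch. The difference was in the Cy5 channel more than in Cy3. Within 500 bases mean Cy5 was 0.036 in amo1D, against -1.09, -0.90 and -1.09 in WT, a difference of 1.06. Mean Cy3 was -0.75 in amo1D, against -1.24, -1.07 and -1.09, a difference of 0.39, so input DNA too lay above all WT arrays there. From 500 to 1000 bases Cy5 differed by 0.21 and Cy3 by -0.094. The part of the Cy3 difference in the ratio was not tested.

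The 2 probes nearest the right edge showed the widest gaps of this side. The first, at 3032011 to 3032070, had a ratio of 0.90 in amo1D, against -0.08, -0.02 and -0.35 in WT. The next, at 3032061 to 3032120 in the spacer printed above, had 1.17, against -0.02, 0.30 and -0.14. Over the 3 spacer probes the mean was 0.98 in amo1D, against 0.045, 0.21 and -0.16 in WT. In limma, a linear model fitted across 43960 probes, 0 passed an adjusted p of 0.05 (0%) and 1417 had an unadjusted p under 0.05 (3.22%). At both edge probes the adjusted p was 0.999 in limma.

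Left of the stretch, on the side where amo1 ends, the stretch of higher ratio was shorter and depended on the background correction. The 10 probes within 500 bases averaged 0.76 in amo1D, against 0.32, 0.51 and 0.24 in the WT replicates, and 9 of 10 lay above all WT arrays. Both the mean and the count include the dim probe over the A and T run, which was not well above background in amo1D. The difference was 0.41 (1.32-fold), with a WT SD of 0.14. It was 0.36 without the dim probe over the A and T run and 0.0059 under normexp background correction. Here both channels were lower in amo1D. Mean Cy3 was -3.06, against -2.01, -2.37 and -1.93 in WT, and mean Cy5 was -2.30, against -1.69, -1.87 and -1.69. These means include the dim probe over the A and T run, whose Cy3 was -10.32 in amo1D, against -4.78, -6.12 and -4.83 in WT. The share of that probe in the lower means was not tested. From 500 to 1000 bases amo1D had 0.35, against 0.23, 0.36 and 0.29, and so lay within the WT range. From 1000 to 2000 bases, inside met3, it had 0.54, against 0.51, 0.50 and 0.24, a difference of 0.12 that was 0.036 without WT replicate 3. The run above all WT arrays held 9 probes and ended 420 bases from the stretch. It counts the dim probe, and is unbroken only if that probe is taken at its value. Such a run was not particular to the edges. At the left end of the window every probe from 3022011 to 3022670 also lay above all WT arrays. Differences there ranged from 0.23 to 0.53.

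**Figure D2:**
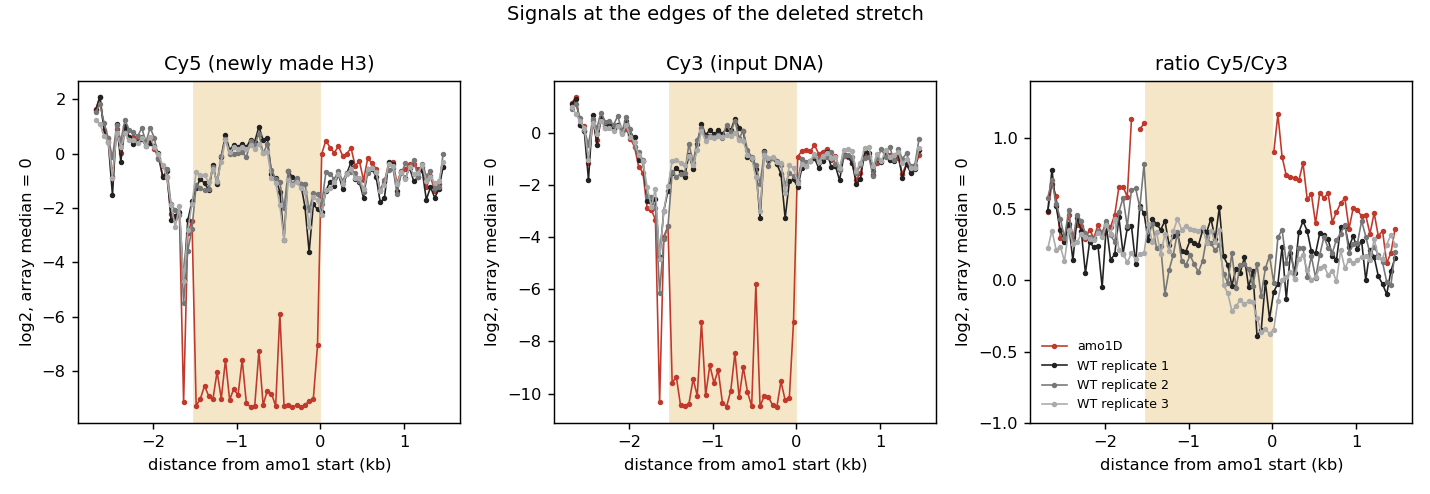
Cy5, Cy3 and their ratio (log2, array median at 0) at each probe around the deleted stretch (shaded), against distance in kb from the start of amo1, in amo1D and the 3 WT replicates. Both channels of amo1D drop to background over the stretch, to a mean of -9.61 in Cy3. To its right Cy5 of amo1D lies about 1 above WT over 500 bases. The ratio is not drawn where amo1D has no signal.

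The rix1E414K and pob3D arrays, which keep amo1, gave the level of the same DNA without a deletion. Within 500 bases right of the stretch rix1E414K had 0.25 and pob3D -0.097, against 0.16, 0.17 and 0.00 in WT. On the left they had 0.40 and 0.34, against 0.32, 0.51 and 0.24 in WT, both within the WT range. In these arrays the DNA next to amo1 thus did not reach the amo1D values of 0.78 and 0.76, though no test compares mutants with each other here.

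**Figure D3:**
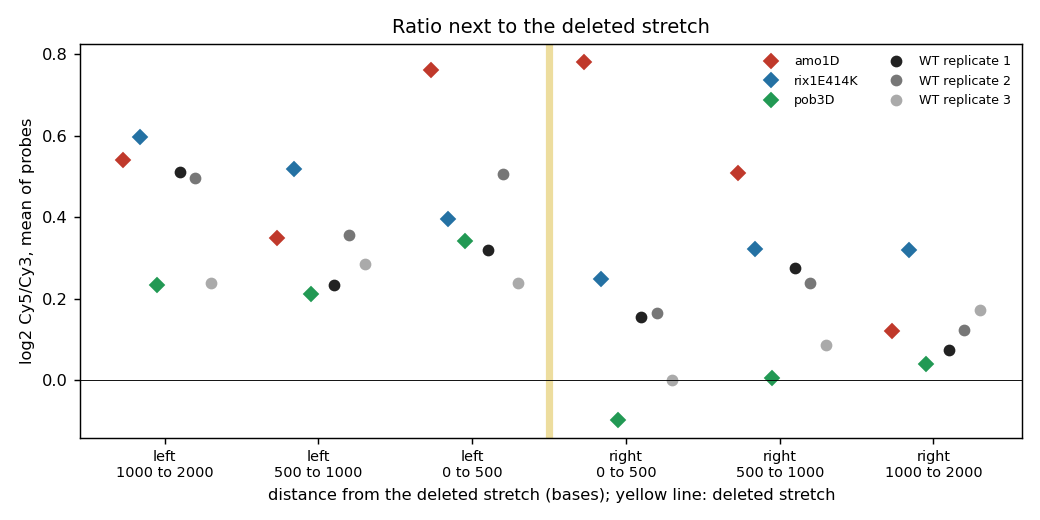
Mean log2 ratio of Cy5 to Cy3 over the probes at 3 distances, in bases, on each side of the deleted stretch, for each array (diamonds for mutants, circles for WT replicates). Within 500 bases amo1D stands at 0.76 on the left and 0.78 on the right, above every other array. The left mean includes 1 probe not well above background in amo1D. Right of the stretch its mean lies within the WT range from 1000 to 2000 bases, though single probes lie on both sides of that range.

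Summed by gene, the right edge shows as a high ratio over SPBC15D4.11c, which encodes a protein of the Mam33 family of mitochondrial proteins. Its ratio was 0.55 in amo1D, against 0.23, 0.22 and 0.10 in the WT replicates. The amo1D value lies well outside the WT range, with a difference of 0.37 (SE 0.092) that was 0.60 under normexp. It did not pass Benjamini-Hochberg adjustment in limma over 942 genes (adjusted p = 0.781), though no gene had a smaller one. Over SPBC15D4.11c Cy5 was -0.44 in amo1D, against -0.91, -0.78 and -0.80 in WT, while Cy3 was -0.99, against -1.14, -0.996 and -0.90, within the WT range. Along this gene the ratio in amo1D was highest next to the deletion: the part nearest it, at the end of the gene, had 0.70 in amo1D, against 0.20, 0.15 and 0.07 in WT, and the part farthest away had 0.44, against 0.20, 0.27 and 0.17.

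In bins of 1 kb, the bin next to the right edge (3032001 to 3033000) had 0.65 in amo1D, against 0.22, 0.20 and 0.045 in WT. Its difference of 0.49 ranked 59 of 2204 bins and did not pass in limma (adjusted p = 0.907), where 0 of the bins passed (0%) and 79 had an unadjusted p under 0.05 (3.58%). The edge is thus not the largest difference of the array. The 2 bins over the deletion have no amo1D value and were left out of that ranking.

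Of the other neighbours, met3 had 0.50 in amo1D, against 0.40, 0.45 and 0.26 in WT, a difference of 0.13 (SE 0.10) that was 0.073 without WT replicate 3. The uncharacterized gene SPBC15D4.08c had 0.37, against 0.34, 0.30 and 0.14, and its difference of 0.12 was 0.059 without WT replicate 3. The snu1 gene had 0.48 in amo1D, against -0.15, 0.35 and -0.19, a difference of 0.47 (SE 0.23) that rests on 3 probes and was 0.22 under normexp. The probes right of snu1, up to 3022670, also lay above all WT arrays. The meiotically upregulated gene mug98, beyond SPBC15D4.11c, had -0.064 in amo1D, against 0.055, 0.11 and 0.13. The spacer between mug98 and SPBC15D4.13c, which encodes a protein of the ASCC1 family, had -0.46, against -0.13, -0.082 and 0.049, so the high ratio beside the deletion gave way to one below all WT arrays.

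Counted over the window, amo1D lay above all WT arrays at 4 of the 12 genes other than lncRNAs that keep their DNA and below all at 6. Over all genes tested 24.4% lay above and 27.6% below. The median difference of the 12 genes was -0.060, against -0.0057 over all genes, and -0.015 within the slide shared with WT replicate 1. The genes above were snu1, SPBC15D4.08c, met3 and SPBC15D4.11c, 2 of which border amo1. The genes below were mug98, SPBC15D4.13c, taf51, pho2 and cwf22 on the right and the autophagy gene atg9 on the left. The remaining neighbours, zng1 and naa30, for the catalytic subunit of the NatC N-acetyltransferase, lay within the WT range. After adjustment in limma 0 of 942 genes (0%) passed for amo1D, and 51 (5.41%) had an unadjusted p under 0.05, of which 1, SPBC15D4.11c, is in the window. Without WT replicate 3, 29 genes had an unadjusted p under 0.05.

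In rix1E414K most genes of the window lay above the WT arrays. The amo1 gene had 0.32, against 0.19, 0.16 and 0.12 in the WT replicates, above all of them by 0.16 over the WT mean (SE 0.082, limma adjusted p = 0.662). Its difference was 0.40 under normexp and 0.10 with the median of probes. On the rix1E414K array 14.2% of genes were higher than amo1. Of 13 genes, 12 lay above all WT arrays, where 30.9% of all genes did so, and 0 lay below, where 26% of all did. The exception was snu1, at 0.012, against -0.15, 0.35 and -0.19 in WT. The largest differences were 0.25 at cwf22, 0.24 at atg9 and 0.24 at mug98, and under normexp they were 0.47, 0.49 and 0.48.

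At atg9 the rix1E414K value was 0.33, against 0.076, 0.11 and 0.071 in WT. At cwf22 it was 0.29, against -0.0045, 0.0076 and 0.13. The median difference of the window genes was 0.18, against 0.00064 over all genes, and 0.13 within the slide that rix1E414K shares with WT replicate 2. It was 0.43 under normexp. None of these genes passed in limma, in which 0 of 943 genes did (0%) and the smallest adjusted p of all was 0.598, while 69 genes (7.32%) had an unadjusted p under 0.05, 3 of them in the window. The Cy3 profile of this array was flatter over the window than in WT, with an SD over probes of 0.60, against 0.96, 0.91 and 0.80, and its part in the ratio was not tested.

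In pob3D most genes of the window lay below the WT arrays. The amo1 gene had -0.085, against 0.19, 0.16 and 0.12 in the WT replicates, a difference of -0.24 (SE 0.082, limma adjusted p = 0.354). On the pob3D array 72.1% of genes were higher than amo1, so its place among genes was lower than on every WT array. Of 13 genes 8 lay below all WT arrays, where 30.8% of all genes did so, and 0 lay above, where 33.7% of all did. The lowest was pho2, at -0.14 in pob3D, against 0.14, 0.20 and 0.084 in WT, a difference of -0.28. At SPBC15D4.08c the difference was -0.23 and at taf51 -0.21, and under normexp both were -0.35. The genes within the WT range were snu1, naa30, atg9, SPBC15D4.13c and cwf22.

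The median difference of the window genes in pob3D was -0.087, against 0.0043 over all genes. It was -0.27 under normexp, -0.14 after loess and -0.16 with the deposited series table, which is not centred. No gene of 943 passed in limma (0%), with a smallest adjusted p of 0.347, while 119 (12.6%) had an unadjusted p under 0.05, 2 of them in the window. Without WT replicate 1 that number was 75. All 3 mutants were set against the same WT arrays. The order of the amo1 levels put rix1E414K first, WT next and pob3D last, and neither mutant passed the test against WT.

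**Figure D4:**
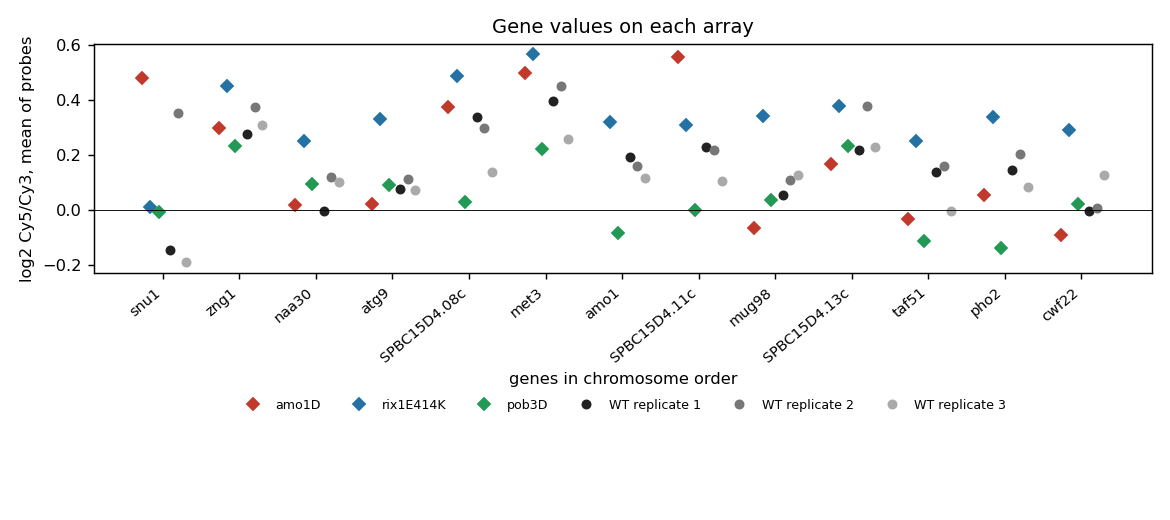
Log2 ratio of Cy5 to Cy3, as the mean of the probes in each gene, for the 13 window genes other than lncRNAs in chromosome order, on each array (diamonds for mutants, circles for WT replicates). The amo1D value stands above the other arrays at SPBC15D4.11c, and amo1 has no amo1D value. At 12 of the 13 genes rix1E414K lies above all WT replicates.

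Most of the lncRNA genes overlap the genes above and share their probes. The antisense RNA gene SPNCRNA.1575 averaged 0.31 in rix1E414K and -0.044 in pob3D, against 0.19, 0.20 and 0.10 in WT. SPNCRNA.1574, which runs antisense over met3, had 0.52 in amo1D, against 0.37, 0.44 and 0.25 in WT. SPNCRNA.1576, on the other side, had -0.14 in amo1D, against 0.018, 0.069 and 0.15. The array does not tell the strands apart, and these genes were left out of the tests.

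Genes whose ratio was most like that of amo1 were found over the 5 arrays that carry amo1, by the root mean square (RMS) difference. Of 930 genes outside the window the median RMS difference was 0.25, and 39 genes lay within 0.1. The closest was SPBC146.02, an uncharacterized gene, at an RMS difference of 0.040, with 0.29 in rix1E414K, -0.11 in pob3D and 0.13, 0.21 and 0.15 in WT. Next came mic60, for a subunit of the mitochondrial MICOS complex, and med15, for a subunit of the transcriptional mediator, both at 0.053. SPBC3H7.04, for a mitochondrial ribosomal protein, and SPBC3E7.11c, for a DNAJ protein, were both at 0.056. On the amo1D array SPBC146.02 had 0.14, mic60 0.12 and SPBC3E7.11c 0.12, each within the WT range. Below all WT arrays lay med15, at 0.021, against 0.13, 0.12 and 0.049, and SPBC3H7.04, at 0.090, against 0.25, 0.11 and 0.095.

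Only genes of chromosome II were used, and few genes of related roles were among those tested. Of 53 listed nuclear pore and nuclear envelope genes 8 were tested. Of these 0 passed in limma, 0 lay above all WT arrays and 2 below, where 24.4% of all genes lay above and 27.6% below. Their median difference was -0.0024, against -0.0057 over all genes. The largest were ely5, a nuclear pore gene, at 0.13 in amo1D, against 0.082, 0.36 and 0.20 in WT, and sad1, for a protein of the nuclear envelope at the spindle pole body, at 0.30, against 0.33, 0.15 and 0.17. Of 15 histone chaperone genes 3 were tested, of which 0 passed, 0 lay above and 2 below, with a median of -0.044. The largest were slm9, of the HIRA complex, at 0.036, against 0.11, 0.18 and 0.13, and pcf1, of the CAF-1 complex, at 0.16, against 0.23, 0.21 and 0.16. In rix1E414K 0 of these genes passed, 4 pore and envelope genes and 1 chaperone gene lay above all WT arrays and 0 below, where 30.9% of all genes lay above and 26% below. In pob3D 0 passed, 3 pore and envelope genes lay above and 3 below, and 0 chaperone genes lay above and 2 below, where 33.7% of all genes lay above and 30.8% below. Of 6 rixosome genes 0 were among the genes tested.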

How the data were processed

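Per the file headers, the authors quantified each 2-colour array with Agilent Feature Extraction 12.0.3.1, with spatially detrended background subtraction and linear dye normalization. Scanner files were deposited with linear intensity values per channel. Per the file headers, the same software also wrote a log10 ratio of Cy5 over Cy3, which was not used for values. The authors' series table was deposited as a ratio equal to processed Cy5 over Cy3 (largest relative difference 9.05e-09), not centred, with medians of 0.981 to 1.02. The build is not given in the sources used here. Correlation of signal with G and C content placed the array numbering 1800 bases ahead of ASM294v3 (900 before a hole in the tiling), within 15 bases in 20 of 20 windows on chromosome II, the only chromosome whose genes were used.

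The 1227 control spots and flagged spots (0 to 19 per array) were left out. Each channel was centred on its array median before taking the log2 ratio of the deposited intensities, with no loess or quantile step. Centring removes any shift common to all probes. Probes of the deleted stretch were set to missing in amo1D. Genes (at least 2 probes, 1235 lncRNA genes left out), 1 kb bins and probes went into limma (3.58.1, under R 4.3.3; 1 term per genotype) with Benjamini-Hochberg adjustment at 0.05 over all features. The 2 residual degrees of freedom come from WT alone, so each mutant array is assumed to vary like WT. The fit was also run on simulated data in which every array had the WT spread, so that run does not test this assumption. Each mutant shares a slide with 1 WT array (amo1D with replicate 1, rix1E414K with 2, pob3D with 3).

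Genes named were amo1, all genes with a probe in the window, the 5 genes most like amo1 and at most 2 genes per list, those of largest amo1D difference. Other features were named after their values were seen. The window and the lists were chosen with earlier results of these data known. Alternatives covered centring, background, normalization, dim and marked spots, the summary per gene, the series table, the slide and each WT replicate left out.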

Additional observations from a re-analysis of the deposited data

How the results depend on the processing

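The count of genes, bins and probes past an adjusted p of 0.05 in limma was 0 under all alternatives run. At an unadjusted p under 0.05, 192 genes were counted for rix1E414K under normexp and 130 with lncRNA genes kept (69 otherwise), and 196 for pob3D with lncRNA genes kept (119 otherwise). For amo1D 125 bins were counted after loess (79 otherwise). Median spot signals, not mean ones, were used for normexp and for no background subtraction, because the scanner tables used hold medians. No paired test was possible. Each mutant shares a slide with 1 WT array, and with the slide as a fixed block no residual degrees of freedom remain. The difference within the slide is therefore given as a value with no test. Under normexp the difference of amo1D from WT within 500 bases was 0.0059 on the left and 1.16 on the right, and 0.45 from 500 to 1000 bases on the right. After quantile normalization it was 0.56 within 500 bases on the right and -0.0059 from 500 to 1000 bases on the left. From 1000 to 2000 bases on the right it was 0.085 with the median of probes and 0.047 within the slide. The median over window genes was 0.43 under normexp and 0.13 within the slide for rix1E414K. For pob3D it was -0.27 under normexp, -0.14 after loess and -0.16 with the series table. The WT level of amo1 was 0.24 after loess and 0.21 with the median of probes. Cy3 of the deleted stretch differed by -1.76 under normexp, -5.16 without background subtraction and -9.18 with the median of probes, against -8.78. The causes were not tested. Of 494 values of single genes 27 changed sign, all from differences near 0. In amo1D, zng1 was 0.00091 after loess and -0.045 to 0.0030 with 1 WT replicate left out, and naa30 was 0.038 with the median of probes. In rix1E414K, snu1 was -0.017 without background subtraction and -0.090 to 0.18 with 1 replicate left out. In pob3D, snu1 was 0.0038 after scaling, 0.067 with the median of probes and -0.11 to 0.16 with 1 replicate left out. There naa30 was -0.011 centred on the ratio, -0.042 under normexp, -0.013 after quantile normalization, -0.041 after loess, -0.046 with the series table and -0.015 to 0.047 with 1 replicate left out. For atg9 these settings gave -0.031, -0.042, -0.028, -0.014 and -0.066, with -0.00077 without background subtraction, -0.039 with the median of probes and -0.0036 to 0.016 with 1 replicate left out. With 1 replicate left out SPBC15D4.13c was -0.071 to 0.0081 and cwf22 -0.046 to 0.019, and cwf22 was 0.0025 with the median of probes. Dim probes limit the left edge, where 1 probe was not well above background in amo1D.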
